A study of Mus musculus with 6 samples.

Results

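The Sp zinc finger transcription factors, encoded by Sp1 to Sp9, were followed in control and Snd1 KO MIN6 clones. All 9 genes were found by Ensembl identifier through GENCODE M21, among 53801 mouse genes listed for each clone. The rule was membership of the family, and earlier results of these data were known when it was set. MIN6 is a mouse insulinoma line used as a model of the pancreatic β cell. Cas9-expressing MIN6 cells received a lentiviral gRNA to intron 2 of Snd1 (control) or to exon 2 (Snd1 KO), were selected with puromycin and were grown from single cells. There were 3 control and 3 Snd1 KO lines, each line is 1 clone, 1 library of RNA was sequenced from each, and all 6 share Cas9, the vector and the selection. Of the 9 genes, 6 passed the filter for testing, an average of 0.5 TPM or more, and Sp5, Sp7 and Sp9 did not. TPM counts the transcripts of a gene per 1000000 transcripts of a library.

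Sp proteins bind GC-rich and GT-rich boxes in promoters through a block of zinc fingers near the C terminus, and they share this block with the Krüppel-like (Klf) factors. Sp1 to Sp4 carry glutamine-rich activation domains and Sp1 and Sp3 are found in nearly all cells, whereas Sp5 to Sp9 are shorter proteins known mainly from the embryo. In the β cell, GC boxes bound by Sp1 and Sp3 have been described for promoters such as that of the GLP-1 receptor gene Glp1r. Sp8 is best known for limb outgrowth and for interneurons of the forebrain.

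The fingers are the most similar stretch of these genes, so their sequences show whether reads of Sp8 could have come from a relative. The longest run of bases that Sp8 transcripts shared with any other member was 44 bases, with Sp9. It lies in the coding sequence of the first zinc finger, at chr12:118849501-118849544 on the plus strand of GRCm38 (exon 3 of 3 of Sp8) and at chr2:73274121-73274164 on the plus strand (exon 2 of 2 of Sp9). The same stretch follows for all members, with bases that differ from Sp8 in capitals.
Sp8: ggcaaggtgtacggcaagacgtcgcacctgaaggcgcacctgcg
Sp9: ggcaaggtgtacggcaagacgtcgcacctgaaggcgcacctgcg
Sp5: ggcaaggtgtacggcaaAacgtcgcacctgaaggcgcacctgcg
Sp6: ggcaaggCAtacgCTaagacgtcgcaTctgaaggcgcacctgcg
Sp7: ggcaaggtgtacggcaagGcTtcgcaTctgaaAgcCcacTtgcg
Sp3: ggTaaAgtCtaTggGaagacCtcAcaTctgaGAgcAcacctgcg
Sp1: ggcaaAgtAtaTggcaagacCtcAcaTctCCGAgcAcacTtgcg
Sp4: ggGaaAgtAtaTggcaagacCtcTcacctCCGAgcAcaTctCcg
Sp2: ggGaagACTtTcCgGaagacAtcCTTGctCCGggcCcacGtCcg

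Sp5 to Sp7 differed from Sp8 at 1, 5 and 6 of these 44 bases, and Sp1 to Sp4 at 12, 18, 11 and 13. On the plus strand the stretch lies at chr2:70476882-70476925 (Sp5), chr11:97022246-97022289 (Sp6) and chr15:102430012-102430055 (Sp1). On the minus strand it lies at chr15:102358486-102358529 (Sp7), chr2:72940644-72940687 (Sp3), chr12:118254511-118254554 (Sp4) and chr11:96955876-96955919 (Sp2). With Sp5 the longest run shared by Sp8 was 26 bases, and with the other members it was at most 23. None of the 4528 stretches of 100 bases in Sp8 transcripts occurs in a transcript of another annotated gene on either strand, and the same holds for Sp1, Sp4, Sp5 and Sp7. For Sp6, 86.4% of such stretches also lie in Gm11532, a gene on the opposite strand. The libraries do not mark strand, so values of Sp6 are uncertain. The share was 3.50% for Sp9, with Cir1 and Gm2810, 0.815% for Sp2, with D030028A08Rik, and 0.244% for Sp3, with Sp3os.

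Sp8 (ENSMUSG00000048562) lies on chromosome 12 from 118846329 to 118852576. The promoters of the family are themselves a place where Sp proteins could bind, and the 250 bases before a transcription start (RefSeq, GRCm38.p6) were read for 7 of the 9 genes. The motif was the GC box GGGCGG on either strand, which 32.7% of 32851 promoters of this length hold, with 3 or more copies in 8.47%. Sp8 has 3 annotated starts, and its first 2 promoters are set beside those of Sp1 and of Sp4, the nearest member on the same chromosome, because they differ in the number of GC boxes, which are in capitals. The stretches are chr12:118846079-118846328 (Sp8 first start, plus strand), chr12:118846983-118847232 (Sp8 second start, plus strand), chr15:102406066-102406315 (Sp1, plus strand) and chr12:118301441-118301690 (Sp4, minus strand).
Sp8 first start: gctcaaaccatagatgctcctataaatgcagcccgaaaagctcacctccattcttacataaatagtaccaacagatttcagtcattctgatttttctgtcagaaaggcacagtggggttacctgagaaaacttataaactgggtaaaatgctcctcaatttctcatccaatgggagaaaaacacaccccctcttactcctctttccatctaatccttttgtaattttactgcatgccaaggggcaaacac
Sp8 second start: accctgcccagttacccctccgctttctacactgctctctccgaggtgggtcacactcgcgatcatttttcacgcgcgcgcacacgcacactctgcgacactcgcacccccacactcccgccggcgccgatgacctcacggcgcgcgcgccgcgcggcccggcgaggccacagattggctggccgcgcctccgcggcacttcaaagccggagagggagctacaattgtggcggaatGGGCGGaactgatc
Sp1: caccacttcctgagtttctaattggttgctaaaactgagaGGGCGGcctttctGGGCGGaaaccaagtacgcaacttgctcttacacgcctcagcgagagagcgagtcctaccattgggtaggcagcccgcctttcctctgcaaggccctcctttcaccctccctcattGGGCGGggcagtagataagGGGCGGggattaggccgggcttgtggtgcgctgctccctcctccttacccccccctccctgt
Sp4: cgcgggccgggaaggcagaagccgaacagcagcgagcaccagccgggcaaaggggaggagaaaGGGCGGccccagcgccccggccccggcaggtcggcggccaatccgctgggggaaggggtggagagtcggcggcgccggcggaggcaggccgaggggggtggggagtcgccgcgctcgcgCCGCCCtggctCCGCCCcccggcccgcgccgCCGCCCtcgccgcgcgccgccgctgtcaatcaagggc

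The first Sp8 promoter had a GC content of 40.8%, and 14.1% of all promoters were at or below this, against a median of 52.4%. The second had 67.2% GC with 1 box, and the third 50.0% with 0 boxes. Sp1 had 4 boxes at 59.6% GC and Sp4 had 4 boxes at 80.0% GC. Sp3 had 5 and 2 boxes before its starts, Sp2 had 0, 1 and 0, Sp9 had 1 and Sp5 had 0. A match of letters does not show that a protein binds there, and no match shows only that these letters are not in this window.

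Reads were recovered from the steps of the TPM values, and the depth lay between 25898107 and 33117573 reads on genes per clone. All 10 β cell markers were detected in every clone, whereas markers of acinar, ductal, endothelial and PP cells summed to less than 1 TPM in each clone. The 3 fibroblast markers summed to between 0.124 and 3.92 TPM in control and between 0.362 and 0.544 TPM in Snd1 KO clones, so the groups overlapped but the highest sum was in a control clone, and their part in the results was not tested. The 2 immune markers summed to at most 2.78 TPM and the 2 δ cell markers to at most 2.42 TPM. The α cell markers summed to between 174 and 314 TPM in control and between 56.9 and 1099.97 TPM in Snd1 KO clones. Snd1 itself had 113, 119 and 112 TPM in control 1 to 3 and 14.7, 57.1 and 19.9 TPM in Snd1 KO 1 to 3, so Snd1 KO 2 kept the most Snd1 mRNA. The study selected all its Snd1 KO clones as deficient in SND1 protein by immunoblot. Its sequencing found insertions or deletions that disrupt the protein. Control 3 stood apart from the other controls, since its correlation across genes was 0.955 with Snd1 KO 3 and 0.943 with control 1. Snd1 KO 1 was no closer to the other Snd1 KO clones (0.922 and 0.933) than to control 1 (0.934). The changes of the 6 tested members are therefore also given without control 3, and values without Snd1 KO 1 are given for Sp8 and where they moved most. Over 17823 genes tested with limma, 1 gene, the small nucleolar RNA gene Gm24966, was called, with 2-fold or more between the groups and an adjusted p under 0.05 (0.00561%).

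Of the members tested, Sp8 had the largest change. It had 164, 94.98 and 56.3 TPM in control 1 to 3 and 19.4, 20.3 and 20.7 TPM in Snd1 KO 1 to 3. The reads behind these values numbered 4877, 2689 and 1450 for control 1 to 3 and 520, 525 and 574 for Snd1 KO 1 to 3. Every Snd1 KO clone was thus below every control clone, and control 3 was the lowest control. Sp8 averaged 105 ± 54.3 TPM over the control group and 20.1 ± 0.681 TPM over the Snd1 KO group (SD, n = 3 each), which is 19.2% of control. In bulk RNA, fewer cells with Sp8 mRNA and less Sp8 mRNA per cell cannot be told apart. The log2 fold change was −2.20 on the log2(TPM + 1) scale (SE 0.35, 95% interval −3.04 to −1.35, adjusted p = 0.324, limma), so Sp8 did not pass after adjustment over all genes. By its unadjusted p it ranked 27 of 17823. An exact two-sided permutation test of the 3 clones against 3 gave p = 0.1, the smallest p this design allows. The study counted Sp8 among its downregulated genes in these libraries and followed it by qPCR on RNA isolated independently from the lines. Its direction in these libraries is therefore not independent evidence, and the qPCR was not part of the data read here.

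Sp8 was at nearly the same level in the Snd1 KO clones, while their Snd1 mRNA differed. Protein was not measured in these libraries, so Snd1 mRNA does not rank the clones by their loss of SND1 protein. Snd1 KO 2 had 57.1 TPM of Snd1 and 20.3 TPM of Sp8, between the Sp8 values of the other Snd1 KO clones. Leaving out each clone in turn, the change of Sp8 on the log2 scale lay between −2.57 (without control 3) and −1.81 (without control 1), and was −2.17 without Snd1 KO 1. Without control 3 the adjusted p was 0.0563 (limma), and with clones weighted by their estimated quality it was 0.0179 with a log2 fold change of −2.42. The adjusted p lay between 0.0179 and 0.775 over the 17 alternatives.

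**Figure D1:**
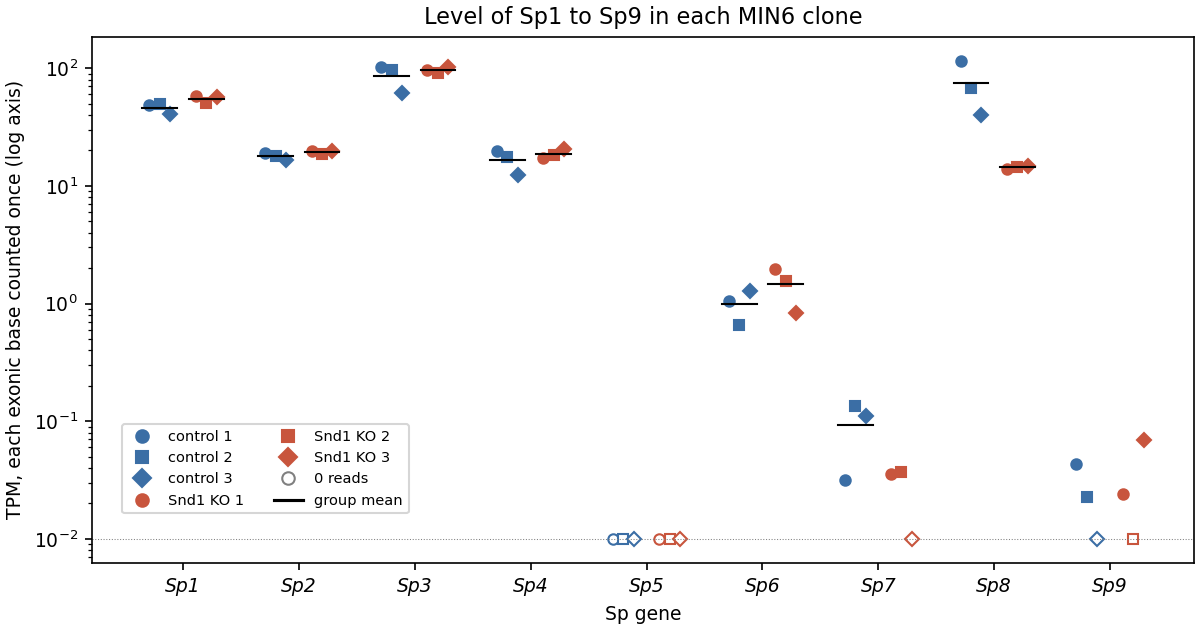
TPM of Sp1 to Sp9 in each of the 6 clones, with each exonic base counted once, on a log axis. Each point is 1 clone, black lines are group means where all 3 clones had reads, and open points on the dotted line have 0 reads. The 3 Snd1 KO clones of Sp8 sit between 13.9 and 14.8, below all 3 control clones, while the groups of Sp2, Sp3, Sp4 and Sp6 overlap.

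The Sp8 values lay farther apart among the control clones than among the Snd1 KO clones. In control clones the highest Sp8 value was 2.91 times the lowest, with a coefficient of variation of 51.8%. In Snd1 KO clones the highest was 1.07 times the lowest, with a coefficient of variation of 3.39%. Counting error alone gives 1.82% and 4.30%, but clones grown apart can differ by more than this in any gene with many reads, as in Sp3, with 25.8% among control clones where counting error gives 1.64%. On the log2 scale the SD of Sp8 was 0.76 in control clones, higher than in 96.2% of the genes that averaged 5 TPM or more, and 0.047 in Snd1 KO clones, higher than in 5.90%. The median gene had 0.18 and 0.19. The difference in spread between the groups was not tested.

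The members found in nearly all cells, Sp1 and Sp3, were not called. Sp1, an activator bound at many housekeeping promoters, had 51.2, 51.9 and 42.6 TPM in control 1 to 3 and 59.9, 53.7 and 59.0 TPM in Snd1 KO 1 to 3. Every Snd1 KO clone was above every control clone by a small margin. The log2 fold change of Sp1 was 0.24 (SE 0.12, 95% interval −0.04 to 0.53, adjusted p = 0.608, limma), and 0.16 without control 3. Sp3, which can activate or repress, had 61.5, 58.2 and 36.7 TPM in control 1 to 3 and 57.5, 55.2 and 61.5 TPM in Snd1 KO 1 to 3. The groups of Sp3 overlapped and control 3 alone was low. Its log2 fold change of 0.19 (SE 0.20, adjusted p = 0.817, limma) turned to −0.044 without control 3.

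Sp2 and Sp4 were not called either. Sp2, which binds GC boxes less readily and works with the factor NF-Y, had 12.6, 11.7 and 10.9 TPM in control 1 to 3 and 13.0, 12.3 and 12.8 TPM in Snd1 KO 1 to 3. The ranges of Sp2 overlapped, with a log2 fold change of 0.11 (SE 0.12, adjusted p = 0.832, limma) that was 0.059 without control 3. Sp4, known mainly from neurons, had 20.8, 18.7 and 13.1 TPM in control 1 to 3 and 18.3, 19.4 and 21.5 TPM in Snd1 KO 1 to 3. Its groups overlapped, with control 3 the lowest. The log2 fold change of Sp4 was 0.18 (SE 0.19, adjusted p = 0.805, limma) and −0.0029 without control 3. The 95% intervals of Sp2, Sp3 and Sp4 were −0.19 to 0.40, −0.30 to 0.67 and −0.26 to 0.63, so none of these 3 genes had an interval that reached a 2-fold change.

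The other shorter members had few reads or none. Sp6, studied in teeth and skin, had 37, 22 and 39 reads in control 1 to 3 and 62, 48 and 27 reads in Snd1 KO 1 to 3. The groups of Sp6 overlapped (log2 fold change 0.26, SE 0.28, adjusted p = 0.813, limma), and its value was 0.35 without control 3 and lay between 0.12 (without Snd1 KO 1) and 0.44 (without Snd1 KO 3) when 1 clone was left out. The log2 fold change of Sp6 was 0.088 after quantile normalization and 0.50 with voom on recovered reads. Sp5, a target of Wnt signaling, had 0 reads in every clone, which allows up to 0.249 to 0.289 TPM per clone at a floor of 3 reads. Sp7, needed for bone-forming cells, had 1, 4 and 3 reads in control 1 to 3 and 1, 1 and 0 reads in Snd1 KO 1 to 3. Sp9, the closest relative of Sp8, had 2, 1 and 0 reads in control 1 to 3 and 1, 0 and 3 reads in Snd1 KO 1 to 3. No fold change was taken for Sp5, Sp7 or Sp9, and all 3 stayed near 0 in both groups at this depth.

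**Figure D2:**
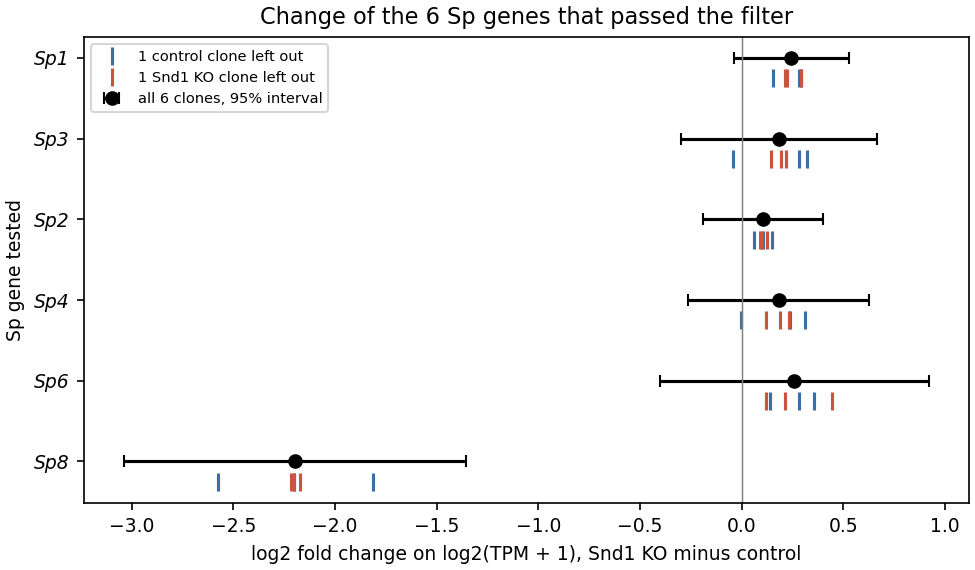
Log2 fold change of the 6 Sp genes that passed the filter, on log2(TPM + 1), Snd1 KO minus control. Points are the values from all 6 clones with 95% intervals, and ticks are the values when 1 clone is left out. Sp8 lies at −2.20 and its ticks between −2.57 and −1.81, while the ticks of Sp3 and Sp4 reach just below 0 when control 3 is left out.

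Read against all genes, 0 of the 6 members tested were called with limma, where 0.00561% of all genes were called. With voom on recovered reads, 0 members and 0 genes in all were called. At an unadjusted p under 0.05, 1 member was lower (Sp8; 2.33% of all genes) and 0 were higher (5.63% of all genes). In all Snd1 KO clones Sp8 was below all controls, as were 4.03% of all genes, and Sp1 was above all controls, as were 9.69%. These shares are 718 lower and 1727 higher genes, which became 1363 and 1194 after quantile normalization, where Sp8 and Sp1 stayed on the same sides. With clone quality weights, Sp8 was called lower, as were 2.08% of all genes. The median log2 fold change over all genes tested was 0.04.

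For levels between genes, TPM was recomputed with each exonic base counted once. In control clones the order by mean was Sp3 at 86.6, Sp8 at 74.6, Sp1 at 46.2, Sp2 at 17.9, Sp4 at 16.6 and Sp6 at 0.995 TPM. Neighbours in this order overlapped for Sp3 and Sp8, for Sp8 and Sp1, and for Sp2 and Sp4. Sp8 was the highest member in control 1, at 116 TPM against 102 TPM for Sp3. In Snd1 KO clones the order was Sp3 at 97.0, Sp1 at 55.0, Sp2 at 19.4, Sp4 at 18.7, Sp8 at 14.4 and Sp6 at 1.45 TPM, and only Sp2 and Sp4 overlapped among these 6. Sp8 was thus between Sp3 and Sp1 by mean in control clones, whereas in Snd1 KO clones all its values were below those of Sp4. With TPM as deposited this order differed. Sp8 was then the highest member by mean in control clones, at 105 TPM against 52.1 TPM for Sp3, and in Snd1 KO clones it overlapped with Sp4, at 20.1 and 19.7 TPM by mean.

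Sp8 made up 37.9%, 27.0% and 23.3% of the summed Sp TPM in control 1 to 3 and 6.71%, 7.36% and 6.89% in Snd1 KO 1 to 3. Since this is a ratio within each clone, it does not depend on scaling between clones, and the groups did not overlap. The mean share was 29.4% ± 7.59 (SD, n = 3) in control and 6.99% ± 0.337 (SD, n = 3) in Snd1 KO clones (exact two-sided permutation test, p = 0.1, the smallest possible). The difference was −22.4 percentage points, and −25.5 without control 3. With TPM as deposited the mean shares were 42.6% and 11.9%, a difference of −30.7 percentage points. The log2 ratio of Sp8 to the sum of the other members averaged −1.29 and −3.74, a difference of −2.45 (exact permutation test, p = 0.1). The sum of the other members averaged 168 ± 31.2 and 192 ± 9.44 TPM (SD, n = 3 each), a log2 difference of 0.20 (exact permutation test, p = 0.3) that was 0.04 without control 3. Sp3 took the largest share in Snd1 KO clones, between 46.6% and 47.8%, and Sp1 between 26.1% and 27.8%.

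**Figure D3:**
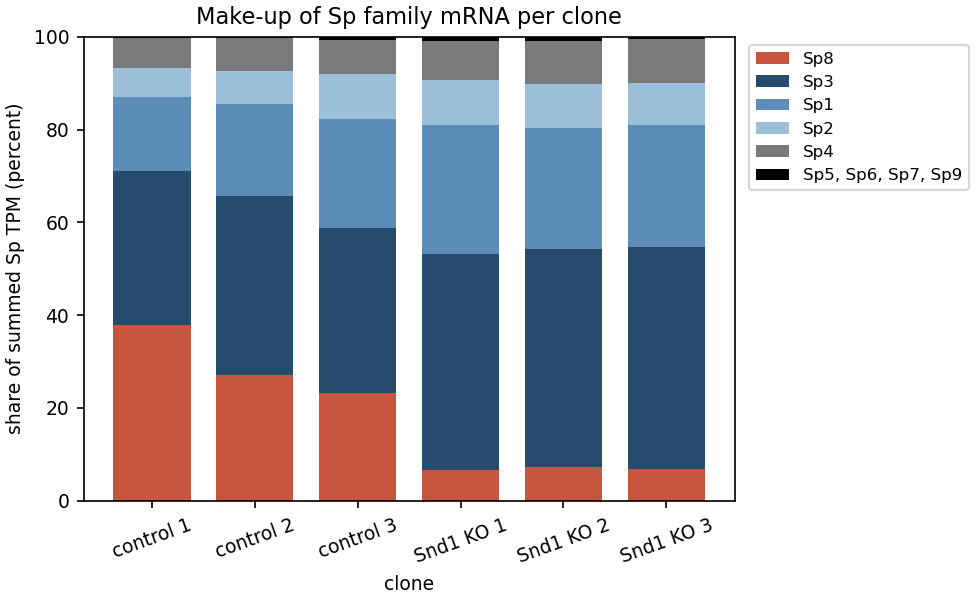
Share of each Sp gene in the summed Sp TPM of each clone, in percent, with each exonic base counted once. Each bar is 1 clone and adds to 100. The Sp8 part is 37.9%, 27.0% and 23.3% in control 1 to 3 and between 6.71% and 7.36% in Snd1 KO clones.

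Several Sp genes lie close together in the genome, so each was also set beside its neighbour. Sp1 and Sp7 lie 39.0 kb apart on chromosome 15, Sp2 and Sp6 lie 30.4 kb apart on chromosome 11, and Sp3 and Sp9 lie 291 kb apart on chromosome 2. Sp4 and Sp8 lie 545 kb apart on chromosome 12 on opposite strands. Of the 18 genes that start within 1 Mb of the Sp8 start, 5 passed the filter and 0 were called (0.00561% of all genes). Among the 5, 2 were higher and 3 lower, with a median log2 fold change of −0.03 (−0.15 without control 3 and 0.08 without control 2). The groups overlapped in all 5, Sp4 among them, against 13.7% of all genes with groups that did not, so these counts set the neighbours apart from no other genes.

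Itgb8, an integrin subunit gene at 392 kb from Sp8, had 12.0, 8.10 and 3.81 TPM in control 1 to 3 and 1.21, 2.99 and 4.94 TPM in Snd1 KO 1 to 3. Snd1 KO 3 was above control 3 while the other Snd1 KO clones were below all controls, with a log2 fold change of −1.15 (SE 0.48, adjusted p = 0.607, limma). Gm6768, at 415 kb, had a log2 fold change of −0.03. On the other side of Sp8, Gm49602, at −612 kb, had 0.21 and Gm9267, at −244 kb, had −0.62, the last from at most 4 reads per clone.

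**Figure D4:**
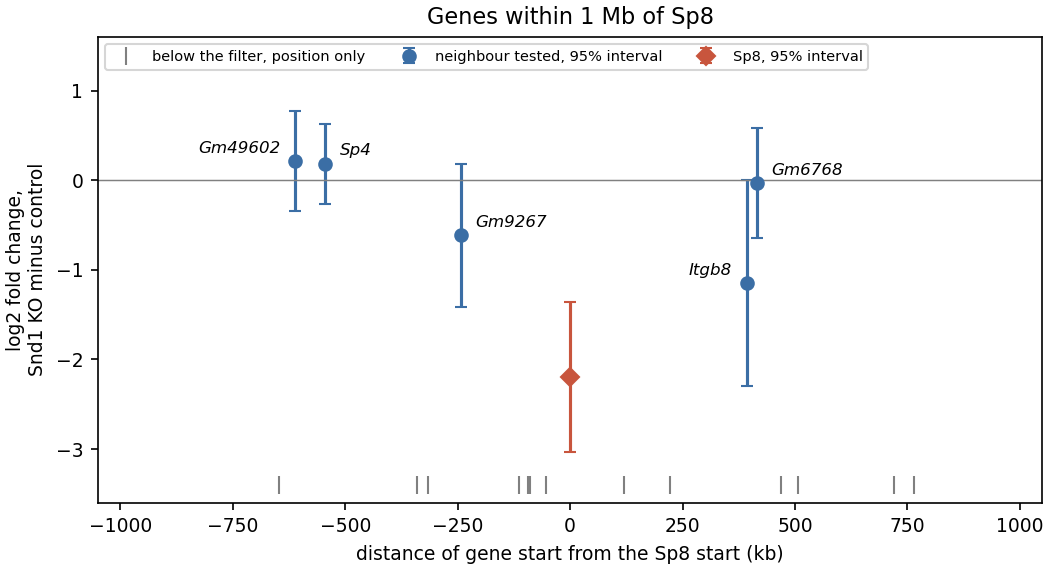
Log2 fold change of Sp8 and of the 5 tested genes that start within 1 Mb of it, against the distance of their start from the Sp8 start in kb. Bars are 95% intervals, and grey ticks mark the 13 genes below the filter by position only. Sp8 at −2.20 lies below the tested neighbours, of which Itgb8 at −1.15 is the lowest.

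The genes whose log2(TPM + 1) followed that of Sp8 most closely over the 6 clones were named by Pearson correlation, as a description. The points share their libraries and fall into the control and Snd1 KO groups, so any gene with the same order of groups scores highly, and 230 genes had a correlation above 0.9. The 5 highest were 9430083B18Rik (0.9996), Synpr (0.997), Pdgfra (0.996), Ttyh2 (0.9899) and Mgat1 (0.9899). 9430083B18Rik, an unverified transcript, had 21, 11 and 5 reads in control 1 to 3 and 0 reads in every Snd1 KO clone. Pdgfra, a growth factor receptor gene, had 17.0, 7.28 and 2.19 TPM in control 1 to 3 and 0.0235, 0.0326 and 0.0987 TPM in Snd1 KO 1 to 3. All 5 repeat the order of Sp8 among the control clones, with control 1 highest and control 3 lowest, which their choice by correlation favors. Synpr, a synaptic vesicle protein gene, had a log2 fold change of −0.30, Ttyh2, a membrane protein gene, −0.47, and Mgat1, an enzyme gene of N-glycan maturation, −0.51. The correlations of the other tested members with Sp8 were −0.54 for Sp1, −0.38 for Sp2, −0.03 for Sp3, −0.07 for Sp4 and −0.53 for Sp6.

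The Klf factors, which share the finger block, were described next. Of 17 Klf genes, 14 were tested, 7 were higher and 7 lower, the median log2 fold change was −0.01 and 0 had groups that did not overlap (13.7% of all genes), too few genes to set this share apart from that of all genes. Their values ran from −0.40 to 0.33, against −2.20 for Sp8, and their median was −0.19 without control 3 and 0.14 without Snd1 KO 1. Of 13 other zinc finger genes that bind GC boxes, 10 were tested, with 5 higher, 5 lower and a median of −0.01 (−0.15 without control 3). Among these, Zfp219, a repressor, was lower in every Snd1 KO clone (log2 fold change −0.40, adjusted p = 0.607, limma) and Zbtb7a was higher in every Snd1 KO clone (0.15, adjusted p = 0.686, limma).

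Partners and modifiers of Sp proteins were mostly above 0. All 17 were tested, 15 were higher and 2 lower, the median was 0.19, and 6 were above all controls in each Snd1 KO clone (9.69% of all genes), with 0 below all controls (4.03% of all genes). Over all genes tested, 10208 were higher and 7615 lower. The median was 0.080 without control 3, and 0 of the 17 were called. Hdac1, a histone deacetylase gene, had the largest change among these 6, with 95.9, 90.2 and 85.0 TPM in control 1 to 3 and 103, 123 and 108 TPM in Snd1 KO 1 to 3 (log2 fold change 0.29, adjusted p = 0.605, limma). Oga, whose enzyme removes O-GlcNAc, a sugar found on Sp1, had a log2 fold change of 0.26, and Crebbp, an acetyltransferase gene, 0.23.

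Genes with textbook GC boxes were divided. Of 25 genes, 24 were tested, 15 were higher, 9 were lower and 0 were called, with a median of 0.04, equal to that of all genes to 2 decimals and 0.15 without Snd1 KO 1. Igf1r, the receptor gene for insulin-like growth factor, had 0.650, 0.976 and 9.97 TPM in control 1 to 3 and 32.0, 16.8 and 18.4 TPM in Snd1 KO 1 to 3. It was thus higher in every Snd1 KO clone, with control 3 between the other controls and the Snd1 KO clones (log2 fold change 2.77, SE 0.72, adjusted p = 0.568, limma). Tert, of telomerase, was also higher in every Snd1 KO clone, with a log2 fold change of 0.31.

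The 5 β cell genes with described GC boxes, Glp1r, Sct, Pdx1, Abcc8 and Slc2a2, were all lower by mean log2 fold change, with a median of −0.96 and 0 called. The study picked Glp1r and Sct from these libraries, also for qPCR on independently isolated RNA, so their values here are not independent evidence. The median is the value of Glp1r itself, and the median of the other 3 genes is that of Pdx1, −0.14, which was −0.27 without control 3 and −0.065 without control 2. Sct, the secretin gene, had 339.9, 192 and 117 TPM in control 1 to 3 and 80.1, 19.0 and 28.3 TPM in Snd1 KO 1 to 3, with a log2 fold change of −2.45 (SE 0.58, adjusted p = 0.544, limma). Sct and Sp8 shared the order of the control clones, with control 1 highest and control 3 lowest, but so did Glp1r and, outside this list, Zfp219. Glp1r was also below all controls in each Snd1 KO clone (log2 fold change −0.96, adjusted p = 0.568, limma). Slc2a2, the glucose transporter gene, had 159.6, 65.0 and 172 TPM in control 1 to 3 and 91.5, 40.5 and 32.8 TPM in Snd1 KO 1 to 3, so its groups overlapped (log2 fold change −1.27, SE 0.49, adjusted p = 0.607, limma). Abcc8 had a log2 fold change of −0.01, which was 0.14 without Snd1 KO 1.

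Readouts and effectors of Wnt signaling, with which Sp5 and Sp8 act in the embryo, were split. Of 20, 9 were tested, 4 were higher, 5 were lower, the median was −0.01 (−0.08 without control 3) and 0 had groups that did not overlap (13.7% of all genes). Of 13 genes studied with Sp8 or Sp9 in limb and forebrain, 5 were tested and 8 were below the filter, with 2 higher, 3 lower and a median of −0.02 (−0.19 without control 3 and 0.48 without Snd1 KO 1). Their values ran from −1.65 to 0.51. The lowest was Six3, a forebrain and eye factor, with 16.5, 14.3 and 2.89 TPM in control 1 to 3 and 0.520, 2.43 and 5.48 TPM in Snd1 KO 1 to 3. Its groups overlapped (SE 0.73, adjusted p = 0.607, limma). Pax6, a factor of the eye, forebrain and islet, was higher in every Snd1 KO clone, with 75.5, 73.4 and 80.2 TPM in control 1 to 3 and 84.4, 145 and 107 TPM in Snd1 KO 1 to 3 (log2 fold change 0.51, adjusted p = 0.607, limma), and its log2 fold change was 0.31 without Snd1 KO 2.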

How the data were processed

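Total RNA from 3 control and 3 Snd1 KO MIN6 clones was made into cDNA and Nextera XT libraries, which do not mark strand. Submitters' processing notes name mm10, FastQC, Trimmomatic, HISAT2, HTSeq and DESeq2, with no versions, and the annotation is not given in the sources used here. The authors deposited TPM per gene and clone, made from reads divided by gene length and scaled to 1000000. Each clone lists 53801 mouse genes, of which 53706 matched GENCODE M21, and 99 spike-in controls that were left out.

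TPM multiplied by the summed exon length of all transcripts gave whole reads (within 0.01) for 93.4% of values above 0, including those of all Sp genes. Summed lengths lower the TPM of genes with many transcripts, so levels between genes were recomputed with each exonic base counted once. Recovered reads outnumber the reads per library that the methods of the study give for this paired-end sequencing, so mates may have been counted singly. Counting intervals may then be too narrow, and they cover counting error only. The floor of detection was set at 3 reads.

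Control and Snd1 KO clones were compared with limma 3.58.1 in R 4.3.3 on log2(TPM + 1), with an intensity trend in the variance, for the 17823 genes that averaged 0.5 TPM or more. P-values were adjusted by Benjamini-Hochberg over all of these, and calls needed 0.05 and a 2-fold change. Fold changes on this scale understate the change of low genes. Single values were compared by exact two-sided permutation tests over all splits of the clones, and scipy 1.17.1 gave the quantiles of the intervals. Python 3.11.15, numpy 2.4.6, pandas 2.3.3 and matplotlib 3.10.9 served for these tests and the other steps. The comparison was tested on simulated data.

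The members and gene lists were chosen with earlier results of these data known. Named genes were Sp1 to Sp9, Snd1, the 5 genes most like Sp8 by Pearson correlation over clones, tested genes within 1 Mb of Sp8, and, per list, called members or else up to 3 with the largest change whose groups did not overlap. A gene that this rule names is not reported here. Pdx1, Abcc8, Slc2a2, Six3 and Gm24966 fell outside this rule and were chosen after their values were seen. Alternatives were a pseudocount of 0.1, no filter or 5 TPM, quantile and median-ratio scaling, rescaling without insulin and mitochondrial genes, exonic bases counted once, voom on recovered reads, no trend, quality weights, a replicate block, no minimum fold change and leaving out each clone.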

Additional observations from a re-analysis of the deposited data

How the results depend on the processing

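Sp8 was lower in Snd1 KO clones under all 17 alternatives, and the side of its threshold changed under 1. With clone quality weights its log2 fold change was −2.42 (adjusted p = 0.0179, limma), 1 Sp member was called and 895 genes were called over all, against 1 gene in the analysis reported. The number of genes called was 0 without a filter, without a trend and with voom on recovered reads, with 1803, 1410 and 1554 genes at an unadjusted p under 0.05. Genes at this unadjusted p numbered 1419 as reported and 5810 with clone quality weights. When 1 clone was left out they numbered between 766 (without control 2) and 2552 (without Snd1 KO 1). Leaving out 1 clone gave between 0 and 2 genes called, and log2 fold changes between −0.044 and 0.32 for Sp3 and between −0.0029 and 0.31 for Sp4, both below 0 without control 3 only. The cause was not tested. The share of Sp8 and its ratio to the other members kept their direction with deposited TPM and without each clone, and with deposited TPM the share in Snd1 KO clones was 11.9% in place of 6.99%. Genes whose Snd1 KO values were all below control numbered 718 as reported, 1184 after median-ratio scaling, 1363 after quantile normalization and 452 when TPM was rescaled without insulin and mitochondrial genes. Those all above control numbered 1727 as reported and 1392, 1194 and 2361 under the same scalings, so that lower genes outnumbered higher ones after quantile normalization. At an average of 5 TPM or more they numbered 1066, of 11368 genes tested. Sp2 joined Sp1 above all controls after the rescaling.

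Clone numbers did not pair the clones, since same-numbered clones had correlations of deviations of 0.051, −0.12 and −0.074. With the replicate block, 0 genes were called (1195 at an unadjusted p under 0.05), and Sp8 kept a log2 fold change of −2.20 (adjusted p = 0.589, limma). In Sp8, with 520 reads or more per clone, the spread between control clones limits the precision, whereas in Sp5, Sp7 and Sp9 the number of reads does.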
